A study of Mus musculus with 2 samples.

Results

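Clustered protocadherins are cadherin-family adhesion proteins encoded side by side in an alpha, a beta and a gamma cluster on mouse chromosome 18. They were taken from a microarray comparison of EpiSC with ELA-EpiSC by the name that the array gives each probe, that is every non-control probe called Pcdha, Pcdhb, Pcdhga, Pcdhgb, Pcdhgc or Pcdhac with a number. This gave 38 of 55681 probes, and they carried 35 of 34650 gene names. The alpha cluster had 9 probes for 7 genes, the beta cluster 22 probes for 22 genes and the gamma cluster 7 probes for 6 genes. A RefSeq gene table lists 14 alpha, 22 beta and 22 gamma genes, so the array named the whole beta cluster and a part of the others.

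EpiSC, or epiblast stem cells, were derived by exposing E14Tg2A mouse embryonic stem cells of strain 129/Ola, kept before in serum with LIF at 1000 U/mL, in chemically defined medium to FGF2 at 12 ng/mL with Activin A at 20 ng/mL. ELA-EpiSC were derived from epiblast-like aggregates, floating clusters of the same line, by exposure to both factors at these doses. There was 1 array for each group, hybridized with RNA pooled from 3 sets of experiments, so no difference below has a replicate check or a p-value, and culture-to-culture variation was not measured. GEO's source entries go against the titles for both groups, since both give the stage as 0DIV and the entry for EpiSC mentions an Argonaute immunoprecipitate. The molecule entries give total RNA for both, and the titles were used. The labels name no genetic modification of either group.

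In the alpha and gamma clusters, each gene contributes its own variable exon with its own promoter, and this exon is spliced to constant exons shared by the whole cluster. Each beta gene is a single coding exon without a shared constant region. Neurons express different combinations of these genes, chosen promoter by promoter under the control of CTCF, cohesin and DNA methylation, and the combination gives a cell surface identity used in self-avoidance of neurites. The C-type genes at the ends of the alpha and gamma clusters are regulated apart from the rest and serve in neuronal survival and wiring.

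Because of this gene structure, it was asked first what each probe could read. In the RefSeq table all 14 alpha genes end within 2 kb of their median end and so do all 22 gamma genes, whereas 0 of the 22 beta genes do. For 34 of the 38 probes, the accessions in the array file named a single clustered protocadherin. The other 4 named several, and are called shared probes below. The array file lists at most 4 accessions for a probe, so a shared probe may read more genes than it names. The shared probe called Pcdhac2 (mm9, chr18:37347235-37347294) also names Pcdha4, Pcdha9 and Pcdhac1, and lies 41.5 kb beyond the last alpha probe of a single gene. Both probes called Pcdhga9 (chr18:37999725-37999784 and chr18:38001378-38001437) also name Pcdhga5 and Pcdhga6, and lie 20.5 kb and 22.1 kb beyond the probe of Pcdhgc5. The fourth is 1 of the 2 Pcdha8 probes, which also names Pcdha4 and Pcdha7 and lies among the alpha variable exons. The signal of a shared probe therefore cannot be given to the gene whose name it carries. Aligned without gaps, the 60 bases of each member probe matched those of the most similar probe of another name at 50 to 63.3% of positions. Probes were compared with probes only and not with transcripts, so this cannot show whether a probe also reads a related gene.

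Few clustered protocadherins were detected. A probe counted as detected where the scanner software called at least 0.5 of its spots well above background, and a gene was represented by the brightest of its detected probes. Of the 35 genes, 13 (37.1%) were detected on both arrays, against 69.1% of all genes on the array. Another 17 (48.6%) were detected on neither array, against 25.4% of all genes. Both arrays detected 4 of 7 alpha genes, 5 of 22 beta genes and 4 of 6 gamma genes. Of these, Pcdha8, Pcdhac2 and Pcdhga9 counted as detected only through shared probes. Among probes that name a single gene, 2 of 7 alpha, 5 of 22 beta and 3 of 5 gamma probes were detected on both arrays.

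In the beta cluster, 4 genes were detected in EpiSC and not in ELA-EpiSC, and 0 the other way. These 4 are 11.4% of the 35 genes, and the same state held for 3.18% of all genes. In the gamma cluster, 1 gene was detected in ELA-EpiSC only, a state that held for 2.36% of all genes. EpiSC thus had 9 detected beta genes and ELA-EpiSC 5. All 4 genes sat close to the limit of detection, whereas the share of all genes covers brighter genes too. The weakest detected signal was higher on the ELA-EpiSC array (6.11) than on the EpiSC array (5.89). In bulk RNA of this kind, fewer cells expressing a gene and less RNA per cell cannot be told apart.

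**Figure D1:**
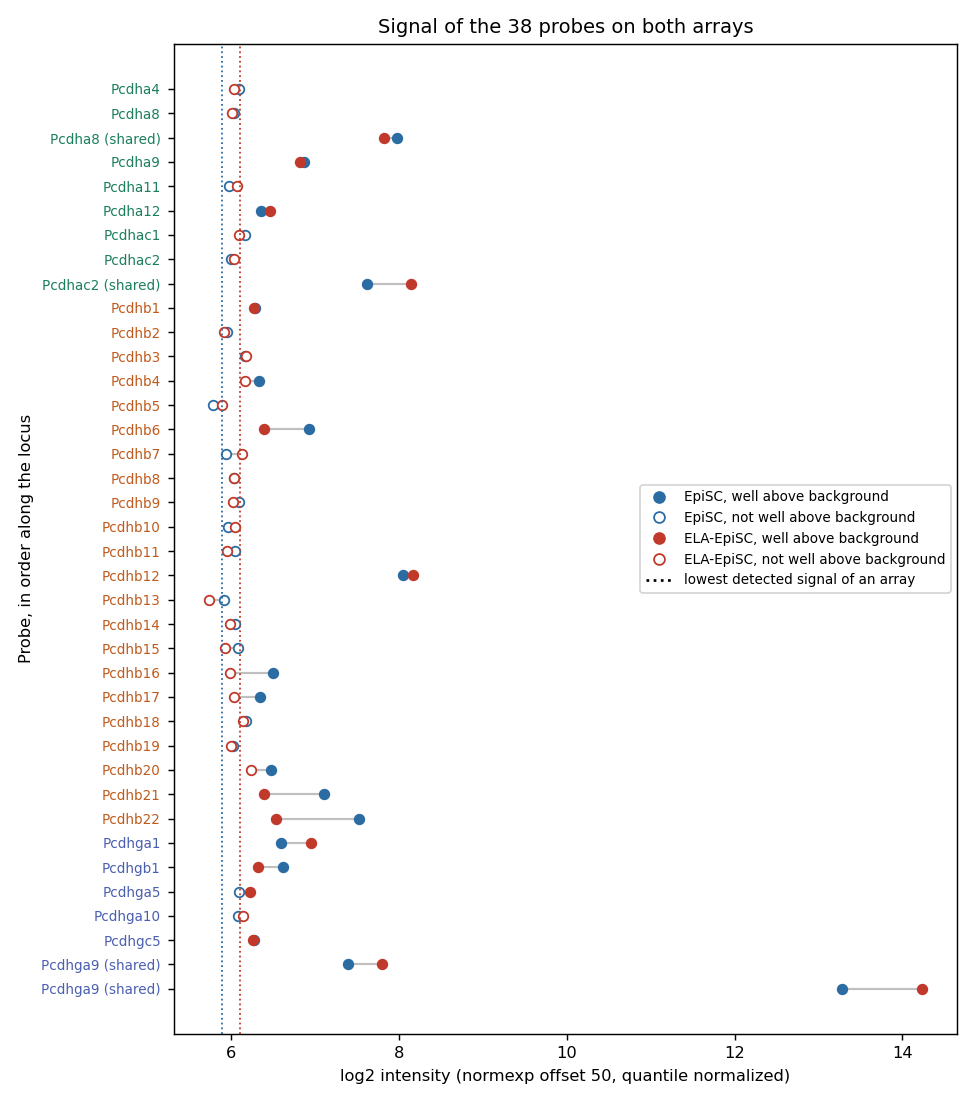
Signal of each of the 38 probes on the EpiSC array (blue) and the ELA-EpiSC array (red), as log2 intensity, with probes in order along the locus and names coloured by cluster (green alpha, orange beta, blue gamma). Filled points were well above background and open points were not, dotted lines mark the lowest detected signal of each array, and levels are not comparable between probes; most beta probes are open on both arrays, and 1 of the probes called Pcdhga9 moves from 13.28 to 14.23.

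Each difference below is the log2 value of ELA-EpiSC minus that of EpiSC, on values that were quantile normalized and are therefore relative to the bulk of the genes, whose median difference was 0.00. Technical error was taken from 399 probes printed in replicate, over which a difference had a root mean square SD of 0.10, which covers spot noise only. No member passed an absolute difference of 1. Past that size stood 3.51% of all genes detected on both arrays in the direction of ELA-EpiSC and 3.42% in the direction of EpiSC, but among genes with a mean log2 under 7.5 only 1.14% and 1.15% did. At 1.5-fold, 1 member was higher in ELA-EpiSC (Pcdhga9) and 2 were higher in EpiSC (Pcdhb21 and Pcdhb22), where the shares of all genes were 8.83% and 8.65%. With 13 members, these counts are near what those shares give, and nothing is read from them. The clusters differed in their medians, with 0.03 over 4 alpha genes (-0.15 to 0.53), -0.54 over 5 beta genes (-0.98 to 0.12) and 0.17 over 4 gamma genes (-0.30 to 0.95). These medians rest on few genes, and they were not tested against each other.

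The beta cluster held the larger differences toward EpiSC. Pcdhb22, the last gene of the cluster (probe at chr18:37680669-37680728), read 7.52 in EpiSC and 6.54 in ELA-EpiSC and differed by -0.98 or 1.98-fold. Its neighbour Pcdhb21 (chr18:37675857-37675916) read 7.10 in EpiSC against 6.40 in ELA-EpiSC, a difference of -0.70. Pcdhb6, nearer the alpha-facing end of the cluster, read 6.93 and 6.40, a difference of -0.54. Each of these differences was over 5 times the spot SD, and each of the 3 genes read higher in EpiSC. The remaining pair of beta genes detected on both arrays moved little. Pcdhb12 read 8.05 in EpiSC and 8.17 in ELA-EpiSC and differed by 0.12. Pcdhb1, the first gene of the cluster, read 6.29 and 6.27, a difference of -0.02, which is less than the spot SD.

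The 4 beta genes detected in EpiSC only were dim, and their differences are given as bounds, against whichever was greater on the ELA-EpiSC array, the reading of that probe or the weakest detected signal (6.11). Pcdhb16 read 6.51 in EpiSC and was not well above background in ELA-EpiSC, at 5.99, so it was at least 1.32-fold higher in EpiSC. Pcdhb17, at 6.34 in EpiSC, was at least 1.18-fold higher, and Pcdhb20, at 6.48, was also at least 1.18-fold higher. Pcdhb4, at 6.33, was at least 1.12-fold higher. All 4 bounds are small, each probe sat close to the limit of detection, and with the spike-in probes set equal all 4 read higher in ELA-EpiSC, by 0.02 (Pcdhb16) to 0.37 (Pcdhb4). Pcdhb3 shows what that limit means, since its probe was printed 10 times and had 3 of 10 spots well above background on each array. It read 6.17 ± 0.08 in EpiSC and 6.18 ± 0.07 in ELA-EpiSC (SD over 10 spots), and the difference of 0.01 ± 0.08 lay within spot noise.

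By position, Pcdhb21 and Pcdhb22, the beta genes with the largest differences among those detected on both arrays, are adjacent at the gamma-facing end of the cluster. The stretch of 38.6 kb from Pcdhb16 to Pcdhb22 holds 7 probes. Of these, Pcdhb16, Pcdhb17 and Pcdhb20 were detected in EpiSC only, so that their direction was fixed by detection. Pcdhb18 and Pcdhb19 were detected on neither array and differed by -0.03 and -0.02. Among the 15 probes from Pcdhb1 to Pcdhb15, 4 were detected on at least 1 array. These were Pcdhb4, in EpiSC only, and Pcdhb1, Pcdhb6 and Pcdhb12, with the differences given above. The stretches were chosen after these values were seen, and no difference between them was tested. With the spike-in probes set equal, Pcdhb21 and Pcdhb22 were the only beta genes detected on at least 1 array that read lower in ELA-EpiSC.

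**Figure D2:**
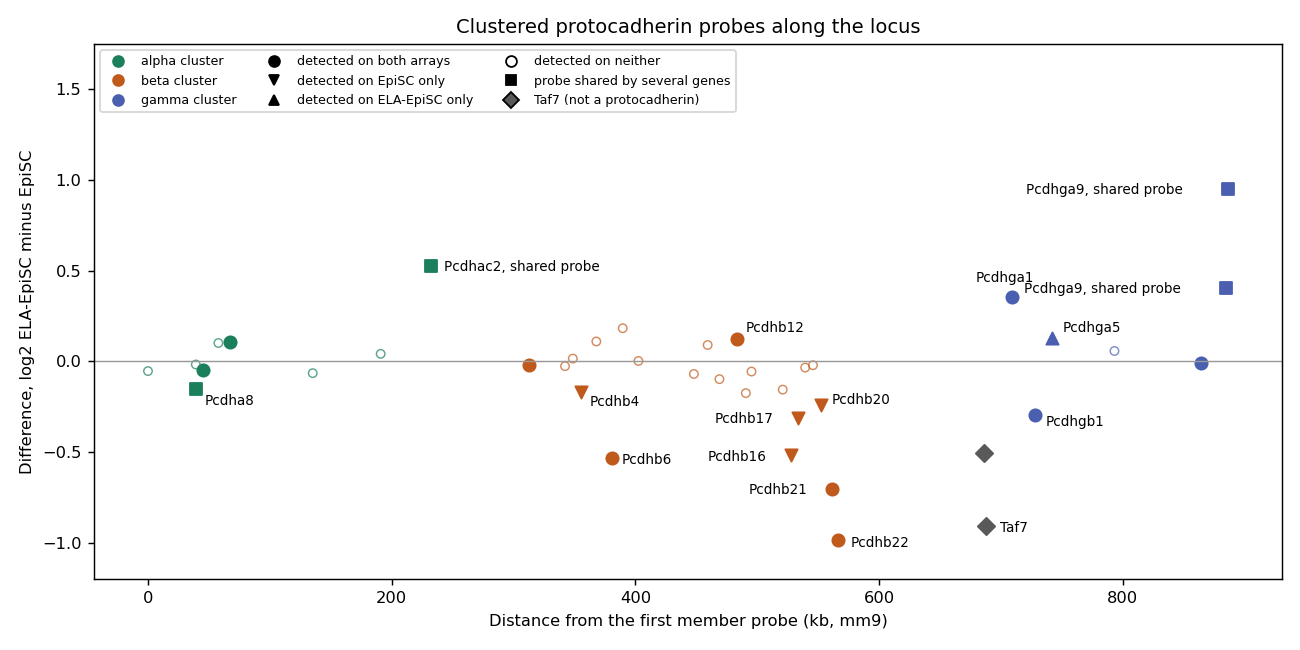
Difference of each of the 38 probes, log2 ELA-EpiSC minus EpiSC, against its distance in kb from the first member probe on mm9, with the probes of Taf7, which lies between the beta and gamma clusters, added in grey. Triangles are probes detected on 1 array, open symbols those detected on neither and squares shared probes; the lowest points are Pcdhb21 and Pcdhb22 at the end of the beta cluster and Taf7, which lies nearer to the gamma cluster, and the highest point is a shared probe at the far end of the gamma cluster, at 0.95.

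The size of the beta differences changed with the processing. The offset of 50 used here compresses the differences of dim probes, and with an offset of 0 the median of the 5 beta genes was -1.07. With the scanner software's own background-subtracted signal, scaled to the 75th percentile, Pcdhb22 differed by -1.99, Pcdhb21 by -1.78 and Pcdhb6 by -1.52. In that processing 4 members passed 1 toward EpiSC (these 3 and Pcdhgb1) and 0 toward ELA-EpiSC, where the shares of all genes were 5.96% and 5.22%. Those shares cover brighter genes too, whereas these 4 members are dim. No share of dim genes was taken in that processing, and nothing is read from the count. The bounds of the beta genes detected in EpiSC only also grew with that signal, to at least 3.02-fold for Pcdhb16, 2.79-fold for Pcdhb20, 2.66-fold for Pcdhb17 and 1.63-fold for Pcdhb4. Spot noise grew as well: over 78 replicate-printed probes that were detected on both arrays with a mean log2 under 7.5, the SD of a difference was 0.32 in that processing and 0.11 in the values used here. Member probes detected on neither array spread from -1.37 (Pcdhb15) to 1.37 (Pcdhb7) in that processing. In the log2 table that the authors deposited, the differences were -1.42 for Pcdhb22, -1.34 for Pcdhb21 and -1.0 for Pcdhb6. Scalings moved these values in both directions. With scaling to the 75th percentile after normexp, which moved the median of all genes to -0.16, the differences were -1.17 for Pcdhb22, -0.94 for Pcdhb21 and -0.78 for Pcdhb6. Over the 8 spike-in RNA probes detected, the mean difference was -0.54, and setting them equal moved the median of all genes to 0.53 and left -0.45 for Pcdhb22, -0.17 for Pcdhb21 and 0.00 for Pcdhb6. Across all 11 alternatives that changed the values, Pcdhb21 and Pcdhb22 were lower in ELA-EpiSC in each, and Pcdhb6 in 10.

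**Figure D3:**
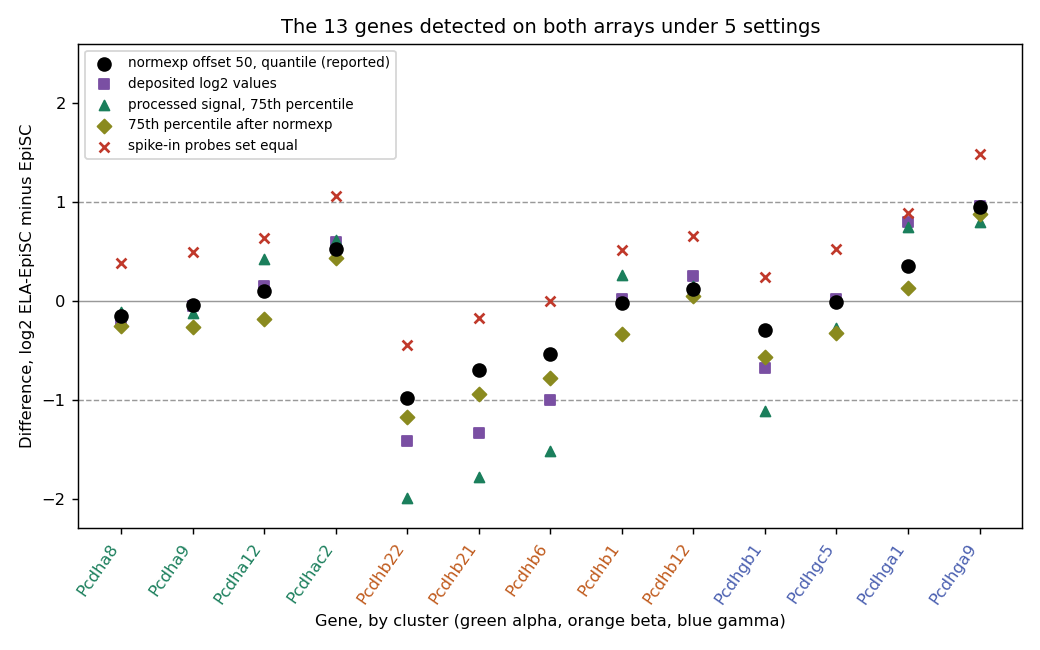
Difference, log2 ELA-EpiSC minus EpiSC, of the 13 genes detected on both arrays, under the reported processing (black circles) and 4 alternatives, with dashed lines at 1 and -1. Pcdhb21 and Pcdhb22 are below 0 and Pcdhga9 and Pcdhac2 above 0 in every setting drawn, and the spike-in scaling lifts all 13 points.

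The gamma cluster held the largest difference toward ELA-EpiSC, and it came from a shared probe. The probe called Pcdhga9 that lies farthest out read 13.28 in EpiSC against 14.23 in ELA-EpiSC, a difference of 0.95 or 1.93-fold, from a spot signal of 9090 and 20381 intensity units. The other probe of that name read 7.39 and 7.79, a difference of 0.40. Both shared probes thus read higher in ELA-EpiSC, and the direction of the first was the same under all 11 alternatives, from 0.80 to 1.49. The array names these probes for Pcdhga9, but no probe for Pcdhga9 alone was among the members.

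The gamma probes of single genes gave no common direction. Pcdhga1, the first gamma gene, read 6.60 in EpiSC and 6.95 in ELA-EpiSC and differed by 0.36. Pcdhgb1 went the other way, from 6.62 to 6.33, a difference of -0.30, or -1.11 with the scanner software's signal and 0.24 with the spike-in probes set equal. Pcdhga5 was detected in ELA-EpiSC only, at 6.23, and was at least 1.09-fold higher there, or at least 2.03-fold with the scanner software's signal, whereas scaling to the 75th percentile after normexp gave a difference of -0.21. Pcdhga10 was detected on neither array. Over the 3 genes detected on both arrays with their own probes, the median difference was -0.01 (-0.30 to 0.36), and over the 2 shared probes it was 0.68. The cluster median of 0.17 thus rests on counting the shared probe, and was -0.01 without it.

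In the alpha cluster, the largest difference also came from a shared probe. The shared probe called Pcdhac2 read 7.62 in EpiSC against 8.14 in ELA-EpiSC, a difference of 0.53, and its direction was the same under all 11 alternatives. A separate probe for Pcdhac2 alone read 6.0 and 6.04 and was detected on neither array. The shared Pcdha8 probe read 7.98 and 7.83, a difference of -0.15, which turned to 0.39 with the spike-in probes set equal. The Pcdha8 probe that names Pcdha8 alone was not detected, at 6.03 and 6.01. The genes read by their own probes moved by about the spot SD or less. Pcdha9 read 6.87 in EpiSC and 6.82 in ELA-EpiSC and differed by -0.05, or 0.49 with the spike-in probes set equal. Pcdha12 read 6.36 and 6.46, a difference of 0.11, which became -0.19 with scaling to the 75th percentile after normexp. Pcdha4, Pcdha11 and Pcdhac1 were detected on neither array.

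Of the C-type genes, which are set apart from the others by their regulation, 1 was detected by a probe of its own. Pcdhgc5 was detected on both arrays, at 6.27 in EpiSC against 6.26 in ELA-EpiSC, a difference of -0.01, close to the lowest detected signals of 5.89 and 6.11. Pcdhac1 was not well above background, at 6.17 and 6.10, and neither was the own probe of Pcdhac2. No probe carried the name of Pcdhgc3 or Pcdhgc4, which are not analysed here. The differences of all 19 probes detected on neither array, C-type or not, lay between -0.18 and 0.18.

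Genes lying inside or beside the locus were read next. Taf7, a subunit of the general transcription factor TFIID, lies between the beta and gamma clusters and read 11.76 in EpiSC and 10.85 in ELA-EpiSC and differed by -0.91. Its other probe read 9.33 and 8.83, a difference of -0.51. Slc25a2, a mitochondrial carrier gene beside it, read 6.56 and 6.50, a difference of -0.06. Taf7 was thus lower in ELA-EpiSC, as were Pcdhb21 and Pcdhb22. Its brighter probe (chr18:37802341-37802400) lies nearer to the first gamma probe than to the probe of Pcdhb22. Slc25a2, which lies between Pcdhb22 and Taf7, moved by less than the spot SD, but it was dim, where the offset compresses differences. With the scanner software's signal Slc25a2 differed by -0.33. With the spike-in probes set equal the Taf7 difference was -0.37 for the brighter probe and 0.03 for the other. Over the 6 listed genes of the neighbourhood, 0 passed 1, and the median was -0.06, with Zmat2 at -0.42 and Diap1 at 0.31 on its brightest probe and -0.17 on the other.

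Genes known to act on clustered protocadherin promoters were all detected on both arrays, 14 of 14, and 0 passed 1 in either direction. Their median was 0.32, with 12 higher and 2 lower in ELA-EpiSC. Rest, a repressor of neuronal genes, read 12.00 in EpiSC against 12.77 in ELA-EpiSC, a difference of 0.77. Dnmt3b, a de novo DNA methyltransferase that methylates these promoters in the early embryo, read 17.07 and 16.24, a difference of -0.84. Its 3 probes ranged from -1.11 to -0.84. Dnmt3a, the other de novo enzyme, differed by 0.49 and the maintenance enzyme Dnmt1 by 0.06. Ctcf, which anchors promoter and enhancer contacts, differed by 0.31, and the cohesin subunits Rad21, Smc1a and Smc3 by 0.20, 0.35 and 0.33. Wapal, which releases cohesin from chromatin, differed by 0.57, and Smchd1, a silencing factor acting at the locus, by 0.44. With the spike-in probes set equal, the median of the list was 0.86.

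The non-clustered protocadherins, which are single genes elsewhere in the genome or beyond the locus, were better detected by gene, 11 of 12 on both arrays, and 0 passed 1. Several of them have more probes than the clustered genes, and 1 detected probe is enough to count a gene. Pcdh15 was detected on both arrays by 2 of 7 probes, and Pcdh9 and Pcdh11x each by 1 of 3. Some were dim, such as Pcdh9 at 6.54 and 6.44 and Pcdh10 at 6.22 and 6.43. The median of the list was 0.20. Pcdh7 read 10.79 in EpiSC and 11.71 in ELA-EpiSC and differed by 0.91, and Pcdh1 read 12.01 and 12.92, a difference of 0.90. The 3 probes of Pcdh7 did not agree in direction and ranged from -0.31 to 0.91. Pcdh18 and Pcdh19 were higher by 0.68 and 0.62, whereas Pcdh17 differed by -0.72, from 7.34 to 6.63. Pcdh12 was detected in ELA-EpiSC only. Members of this family therefore went both ways, as the clustered genes did.

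Intracellular partners of the clustered protocadherins and the proteases that cleave them were detected in full, 21 of 21, with a median of 0.30. Past 1 stood 1 gene, Cyfip2, a subunit of the WAVE actin regulatory complex, which read 11.44 in EpiSC against 13.06 in ELA-EpiSC, a difference of 1.62. Its paralogue Cyfip1 differed by 0.05. Wasf2, another WAVE subunit, differed by 0.84, but its 3 probes ranged from -0.09 to 0.84. The kinases Fyn and Ptk2, which clustered protocadherins engage, differed by 0.72 and 0.69, and the 3 probes of Ptk2 ranged from 0.05 to 0.69. Of the gamma-secretase genes, Aph1a differed by -0.92 and Psen2 by -0.48, and Adam10, the sheddase, by -0.30. With the spike-in probes set equal, the differences of Adam10 and Psen2 turned positive, at 0.24 and 0.05.

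**Figure D4:**
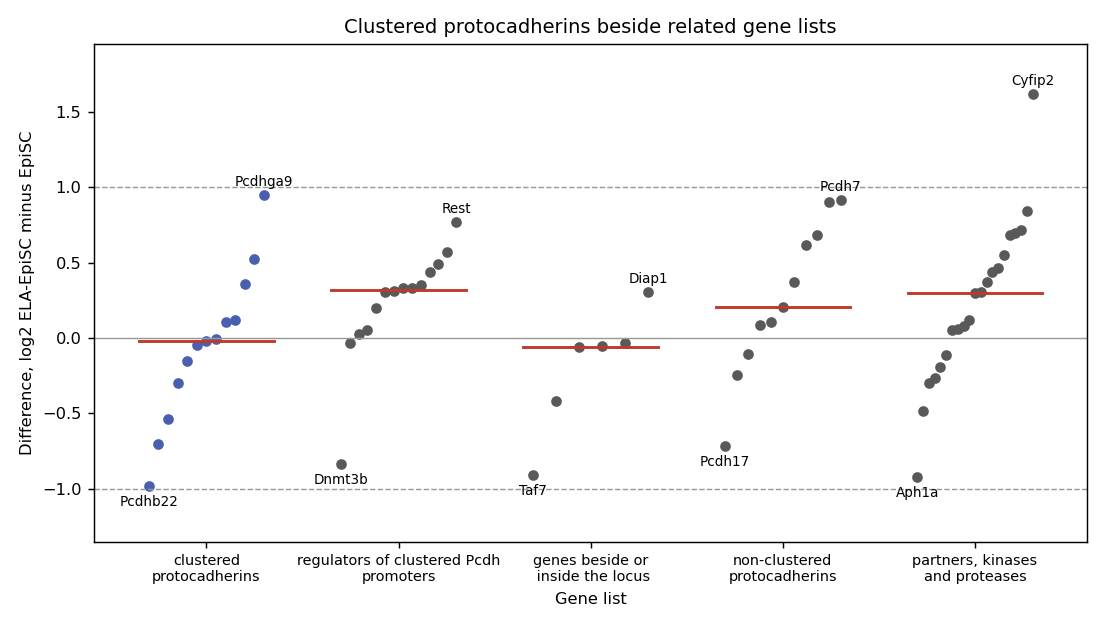
Difference, log2 ELA-EpiSC minus EpiSC, of each gene detected on both arrays in 5 lists, 1 point a gene sorted within its list, with the median as a red bar and dashed lines at 1 and -1. The 13 clustered protocadherins spread from -0.98 to 0.95 about a median near 0, and 1 gene of the related lists, Cyfip2, lies past 1.

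Markers of other cell types were read on the same arrays, and their values stand beside those of the clustered genes. All 7 epiblast and pluripotency markers were detected on both arrays and 0 passed 1, with a median of 0.19, from -0.84 (Dnmt3b) to 0.61 (Utf1). Pou5f1, which codes for Oct4, differed by 0.19 and Sox2 by -0.27. The summed signal of the list was 18.02 in EpiSC against 17.84 in ELA-EpiSC (log2), with Dnmt3b alone at 17.07 and 16.24. The sum thus followed Dnmt3b, whereas 5 of the 7 markers read higher in ELA-EpiSC and 2 lower.

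Of 11 neuron markers, 10 were detected on both arrays, 7 higher and 3 lower in ELA-EpiSC, with a median of 0.22. The neurofilament genes Nefl (2.18) and Nefm (1.12) were past 1, whereas Rbfox3, Elavl3 and Elavl4 differed by -0.73, -0.68 and -0.17, and Dcx was detected in ELA-EpiSC only. The 3 probes of Rbfox3 ranged from -0.73 to 0.03. The summed signal of the neuron list was 14.90 and 15.94, with Nefl alone at 13.06 and 15.24. Of 6 neural progenitor markers, 4 were detected on both arrays, 1 higher and 3 lower in ELA-EpiSC, with a median of -0.05. Nes differed by 2.11 and the others detected on both by -0.12 to -0.01, Neurog2 was detected in ELA-EpiSC only, and Pax6 was detected on neither array. The summed signal was 12.47 and 14.42, with Nes alone at 12.26 and 14.37. The sums of both neural lists thus followed Nefl and Nes.

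All 6 mesenchyme markers were detected and read higher in ELA-EpiSC, with a median of 1.82. Past 1 stood 4 of them, Col1a1 at 3.72, Vim at 2.53, Col3a1 at 1.88 and Pdgfra at 1.77. Twist1 differed by 0.43 and Col1a2 by 0.08, or -0.03 for Col1a2 with the scanner software's signal. The summed signal was 13.74 and 16.04, with Vim alone at 13.39 and 15.91. Of 6 visceral endoderm markers, 4 were detected on both arrays, with a median of -1.84. Hnf4a (-5.12) and Amn (-2.75) were past 1 toward EpiSC, Sox17 differed by -0.93 and Afp by 0.21, Ttr and Apoa1 were detected in EpiSC only, and the summed signal was 14.31 and 12.75. The part of these cell types in the protocadherin differences was not tested.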

How the data were processed

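The scanner output that the authors deposited gives linear intensity per spot, made per the file headers with Feature Extraction 10.7.3.1 with probe positions on mm9, whereas the submitters' processing notes name version 9.1. A deposited table of log2 values, which the authors background-corrected and quantile normalized with limma, was used as an alternative. Both arrays lay on 1 slide in 1 scan. Mean spot signal was corrected with normexp (offset 50, fitted on all spots) and quantile normalized in limma 3.58.1 under R 4.3.3, after leaving out control spots and flagged spots (158 for EpiSC, 117 for ELA-EpiSC). Log2 values of the spots of a probe were averaged. The steps were tested on simulated data, with known changes put into bright spots only. Recovery of changes in dim spots, such as those of most members, was not tested. The median spot signal was 71.7 and 79.1 intensity units, over a median background of 26 and 25. With 1 array a group, no test was possible and the number of arrays limits precision.

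Of the probes of a gene detected on either array, the one with the highest mean log2 stood for the gene. All 38 member probes matched RefSeq (GRCm38.p6, used for names and gene ends only). Named genes were those past 1, the 3 with the largest difference per direction in each cluster, the C-type genes, up to 5 bounds per direction, and genes from lists of regulators, neighbours, relatives, partners and cell type markers. Members, rule and lists were chosen with earlier results of these data known. The 18 alternatives changed background correction, scaling, pixel summary, flags, filters, thresholds, detection call and probe choice.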

Additional observations from a re-analysis of the deposited data

Results flagged for a closer look

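Beside the probes of Taf7 and Slc25a2, which are described above, 4 probes inside the locus without a clustered protocadherin name gave signal above background on at least 1 array and entered no comparison. A probe without a gene name between the alpha genes Pcdha8 and Pcdha9 read 6.11 in EpiSC and 6.19 in ELA-EpiSC (log2), and was well above background in ELA-EpiSC only. TC1627912, between Pcdha12 and Pcdhac1, read 6.49 and 6.46. ENSMUST00000097608, between Taf7 and the first gamma gene, read 8.06 and 7.65, a difference of -0.41 in the direction of Taf7 and Pcdhb22, or 0.13 with the spike-in probes set equal. A probe without a gene name between Pcdhga5 and Pcdhga10 read 7.65 and 7.84, a difference of 0.19. With 1 array a group there was no control level to set these against.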

How the results depend on the processing

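No paired analysis was possible because the groups share no replicate numbers beyond a single array each, and no replicate could be left out. No member was past 1 as reported, so no call could turn to the opposite direction. The median of each cluster changed sign in some settings, as given below. The cause of these changes was not tested. Members past 1 toward EpiSC, 0 as reported, were 3 with a normexp offset of 0, 2 with an offset of 16, 2 with no background correction, 4 with the scanner software's processed signal, 1 with scaling to the 75th percentile, 2 in the deposited log2 values and 2 at 1.5-fold. Members past 1 toward ELA-EpiSC, 0 as reported, were 1 with scaling to the median, 2 with the spike-in probes set equal, 1 with cyclic loess and 1 at 1.5-fold. A share of all genes past the same size was taken only for the reported values, the processed signal and 1.5-fold, as given above. No such share stands beside the counts of the other settings, and nothing is read from these counts. The alpha median of 0.03 became 0.16 with the processed signal, -0.22 with the 75th percentile, 0.57 with spike-in scaling and 0.19 with a minimum mean log2 of 7.5. The beta median of -0.54 became -1.07 with offset 0, -0.81 with offset 16, -0.80 with no background correction, -1.52 with the processed signal, -0.78 with the 75th percentile, 0.00082 with spike-in scaling, -1.0 in the deposited values, 0.12 with that minimum, where Pcdhb12 alone is left, and -0.064 with no filter on detection. The gamma median of 0.17 became 0.31 with offset 0, -0.10 with the 75th percentile, 0.71 with spike-in scaling, 0.41 in the deposited values, 0.95 with that minimum, where Pcdhga9 alone is left, and -0.0094 over probes of single genes. Genes detected on both arrays, 13 as reported, were 23 when the scanner software's call of a positive and significant signal was used. Signal near background limits the differences of most members, the bright Pcdhga9 probe being an exception.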

Other observations

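Genes in 1 Mb on either side of the clustered protocadherins were read as a description, a window chosen after the data were seen. Of 63 gene names there, 56 were detected on both arrays, 39 of them read higher in ELA-EpiSC, and the median difference was 0.12. Over all genes detected on both arrays, 49.6% read higher in ELA-EpiSC. Some of the names are chromosome positions that overlap each other, so the names are not independent. Past 1 stood 2 genes, both toward ELA-EpiSC, where the share of all genes was 3.51%, and nothing is read from that count. Arap3, which lies 131 kb beyond the last gamma probe, read 10.35 in EpiSC against 12.33 in ELA-EpiSC, a difference of 1.97. Hbegf, an EGF receptor ligand 450 kb before the first alpha probe, read 11.20 and 12.69, a difference of 1.49. Both remained above 1 with the processed signal, at 1.97 for Arap3 and 1.46 for Hbegf.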
